A study of Mus musculus with 4 samples.

Results

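The sites described here are the m6A sites of the knockout pancreas that fall in genes with no site at all in the wild-type list. They were found by taking each row of the KO site list and keeping it when its gene identifier, or the gene name where the identifier was empty, occurred in no row of the WT list. The rule kept 948 of 3937 KO sites, or 24.1%, and these sites lay in 849 of 2778 KO genes, or 30.6%. Of the 849 genes, 21 were matched by name because they carried no identifier. The rule itself used the listing in both genotypes, so these shares describe the selection and were not tested. They depend on the length of the WT list: with only as many WT sites kept as the KO list holds, those of highest fold enrichment, the rule took 1979 sites (50.3%) in 1622 genes (58.4%). A gene without a row in the WT list had no site that passed the caller there, which does not show that its transcript was unmethylated in WT.

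The pancreata came from mouse embryos at E15.5 (embryonic day), either wild type (WT) or lacking Mettl3 in progenitor cells that express Pdx1 (KO). Each genotype was represented by 1 MeRIP library, in which RNA fragments of about 200 nt were pulled down with an antibody against m6A, and 1 input library without the pull-down. The WT list held 10514 sites in 5085 genes. With 1 library of each kind per genotype there was no replicate error, and the genotypes were not compared by a test.

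The deletion reaches only cells descended from the Pdx1 lineage, and mesenchyme, vessels, blood and nerves in the same organ are not its target. How much of the RNA came from cells without Mettl3 is not recorded in the labels. The lists hold no transcript levels, so neither the loss of Mettl3 nor the level of any transcript could be checked. In these whole-organ samples a change in the number of cells of a type, a change in RNA per cell and a change in methylation cannot be told apart.

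N6-methyladenosine (m6A) is the most common internal modification of messenger RNA. METTL3 is the catalytic subunit of the complex that writes it, METTL14 is its partner, and reader proteins of the YTH family bind the modified base and affect RNA decay, splicing and translation. The complex favours a short sequence known as the DRACH motif, of which GGACT, with U for T in RNA, is a frequent form, and the mark is densest near stop codons and in long internal exons.

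The sequences below show what the genome holds under the KO sites that cover an annotated transcript start and carry GGACT in the first 50 transcribed bases. They are taken from RefSeq transcript starts on GRCm38.p6, the same assembly as mm10, because starts were the only gene sequence available for these sites. Each is written 5′ to 3′ on the strand of its gene, and capitals mark GGACT.

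Psmd12: acagcaggGGACTcttaggca
Tmem106c: cgcgccgaGGACTcgctggag
Mob2: gcagccatGGACTggctcatg
Creg1: gtgggcagGGACTccgcagtc
Fgf10: tttccaagGGACTtggaggtg

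These 5 stretches lie at chr11:107479550-107479570 on the plus strand for Psmd12, a regulatory subunit of the proteasome, and at chr15:97964256-97964276 on the plus strand for the membrane protein gene Tmem106c. The stretch of Mob2, a kinase-binding protein gene, lies at chr7:142060987-142061007 on the minus strand. That of Creg1, which encodes a secreted glycoprotein, lies at chr1:165763758-165763778 on the plus strand, and that of Fgf10 at chr13:118714702-118714722 on the plus strand. Fgf10 encodes the growth factor that pancreatic mesenchyme supplies to the epithelial progenitors. The KO sites around them had fold enrichments of 7.16 in Psmd12, 6.41 in Tmem106c, 6.06 in Mob2, 5.40 in Creg1 and 4.42 in Fgf10.

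Start sequences were at hand for 640 of the 849 genes, or 75.4%, which is too few to describe all of them. Among the 107 start windows of 50 bases that lay whole inside a KO site of these genes, 5 held GGACT (4.67%, Wilson 95% interval 2.01 to 10.5) and 18 held its first 4 letters, GGAC (16.8%). Windows under the other KO sites held GGACT in 8 of 209 cases, and among all 32851 starts in the reference, 5.76% held GGACT and 18.9% held GGAC. On the opposite strand, AGTCC occurred in 2 of the 107 windows and GTCC in 16, against 4.87% and 17.4% of all starts. The start windows of these genes therefore held the motif at a share whose interval includes that of starts in general. A match is a description of letters and not a measured methylated base.

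Every site carries values from the authors' peak caller, and these are used here only to describe and rank sites within the KO list. Fold enrichment is the ratio of MeRIP signal over input at the site. The score is the p-value of the site as its negative log10 multiplied by 10, and no KO site scored below 50.02. The false discovery rate is the caller's estimate, in percent, of how many sites of that strength would be false. All of these are values of a single library pair.

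Fold enrichment of the 948 sites ran from 3.07 to 28.97, with a median of 6.36 and quartiles of 5.38 and 7.53. The 2989 KO sites of genes listed in both genotypes had a median of 6.14 and quartiles of 5.12 and 7.39. The distributions lay nearly on top of each other, and the share of sites at 10-fold or more was 5.06% (48 sites) against 4.85% (145 sites). Scores had medians of 67.9 and 69.5, and 68 of the 948 sites scored below 52 (7.17%) against 7.26% of the others. Below a score of 60 the shares were 33.9% (Wilson 95% interval 30.9 to 36.9) and 30.3% (28.7 to 32.0).

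The false discovery rates were high throughout the KO list. The lowest among the 948 sites was 45.92%, the median was 48.4% in both sets, and 16 sites stood at exactly 100%. In the WT list the lowest rate was 9.75% and the median 10.6%. Within the 948 sites the rate had a median of 48.9% for the 321 sites that scored from 50 to 60 and 47.3% for the 460 that scored from 60 to 100. It was 58.7% for the 144 that scored from 100 to 200 and 100% for the 23 that scored 200 or more. The sites with the strongest p-values were therefore those with the highest estimated false discovery rates, and this holds for several of the genes named below. The lowest rates belonged to sites of middling strength, at 45.92% in AK029949 and in F8 (coagulation factor VIII), 45.98% in Camk2g (a calcium and calmodulin-dependent kinase) and 46.03% in AK158038 and in the nucleoporin-like gene Nupl2.

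Site width separated the sets more than enrichment did. The 948 sites spanned 9 to 5707 bp with a median of 304.5 bp (order-statistic 95% interval 273 to 346) and quartiles of 163 and 817 bp. The other KO sites had a median of 188 bp (181 to 193) and quartiles of 130 and 367 bp. Among genes with 1 KO site only, the medians were 366 and 213 bp. The 5 widest sites were in Slc7a2, a cationic amino acid transporter (5707 bp, 9.07-fold), Pank3, a pantothenate kinase (5285 bp), 1810041L15Rik (5190 bp), Dsel, an epimerase-like gene of dermatan sulfate (4261 bp), and the adaptor gene Crkl (3780 bp). These intervals are longer than the RNA fragments that were pulled down, and a wide interval in genome coordinates can run over introns.

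**Figure D1:**
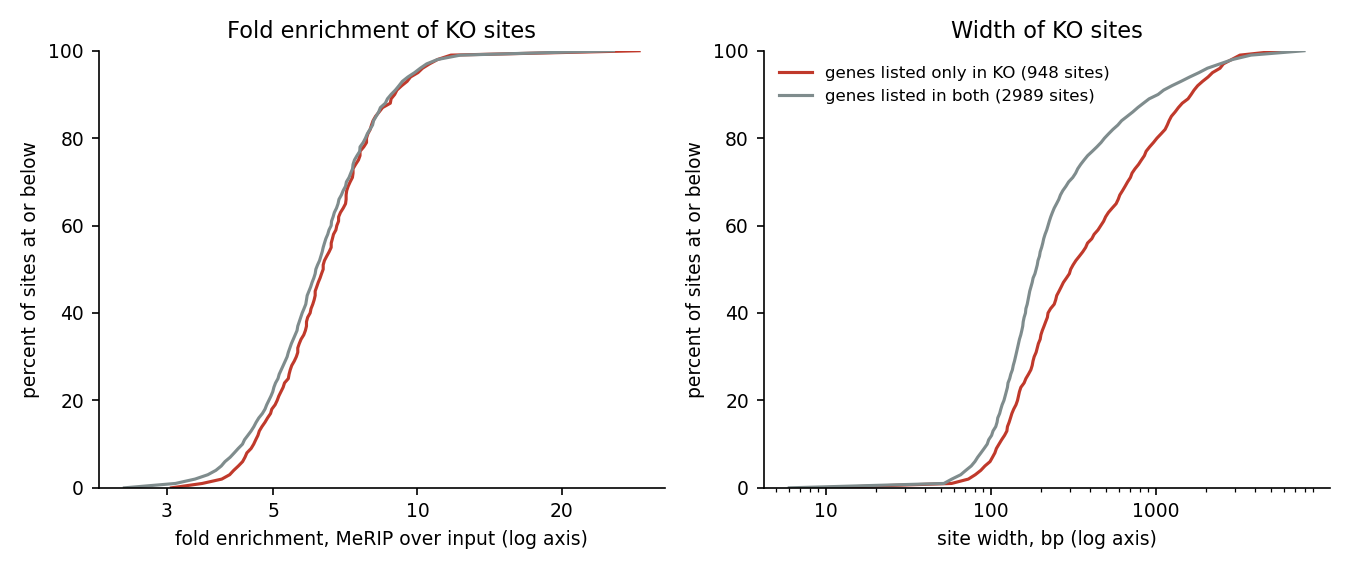
Cumulative percent of KO sites (vertical axis) at or below a given fold enrichment (left) or width in bp (right), both on log axes, for the 948 sites of genes listed only in KO (red) and the 2989 sites of genes listed in both (grey). The fold enrichment curves almost coincide at medians of 6.36 and 6.14, while the red width curve lies to the right, at a median of 304.5 against 188 bp.

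Genes closest to the rule's limit, with exactly 1 WT site, gave intermediate widths. There were 724 such genes with 900 KO sites, at a median width of 244.5 bp and a median fold enrichment of 6.21. Read by width, the share of KO sites in genes listed only in KO was 14.4% below 100 bp, 18.5% from 100 to 150 bp, 16.0% from 150 to 200 bp, 22.5% from 200 to 300 bp, 29.1% from 300 to 500 bp, 37.5% from 500 to 1000 bp and 41.3% from 1000 to 2000 bp, and it was 33.2% at 2000 bp or more. By contrast, the share ran only from 20.8% to 27.6% over 5 equal classes of fold enrichment.

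Genes listed only in KO mostly had a single site. A single KO site was found in 765 of them, 2 sites in 72, 3 sites in 10 and 4 or more in 2. Among all KO genes, those listed only in KO made up 37.6% of the 2033 genes with 1 site, 14.7% of the 491 with 2, 6.13% of the 163 with 3 and 2.20% of the 91 with 4 or more. More KO sites in a gene thus went with a smaller share.

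The genes were also shorter. Annotated length, from the first to the last base of the gene with introns, was known for 821 of the 849 and had a median of 25488 bp (23937 to 27544), against 56701.5 bp for the genes in both lists. Genes listed only in WT, 3156 in number, had a median of 28672.5 bp, close to that of the KO-only genes. The share of KO genes listed only in KO, taken in 5 equal classes of length, was 52.3% in the shortest (334 to 17627 bp), 38.3% in the next, 25% in the middle class, 18.2% in the next and 16.9% in the longest (112273 to 2390387 bp). Among genes with 1 KO site the order was the same, from 54.9% down to 22.8%.

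**Figure D2:**
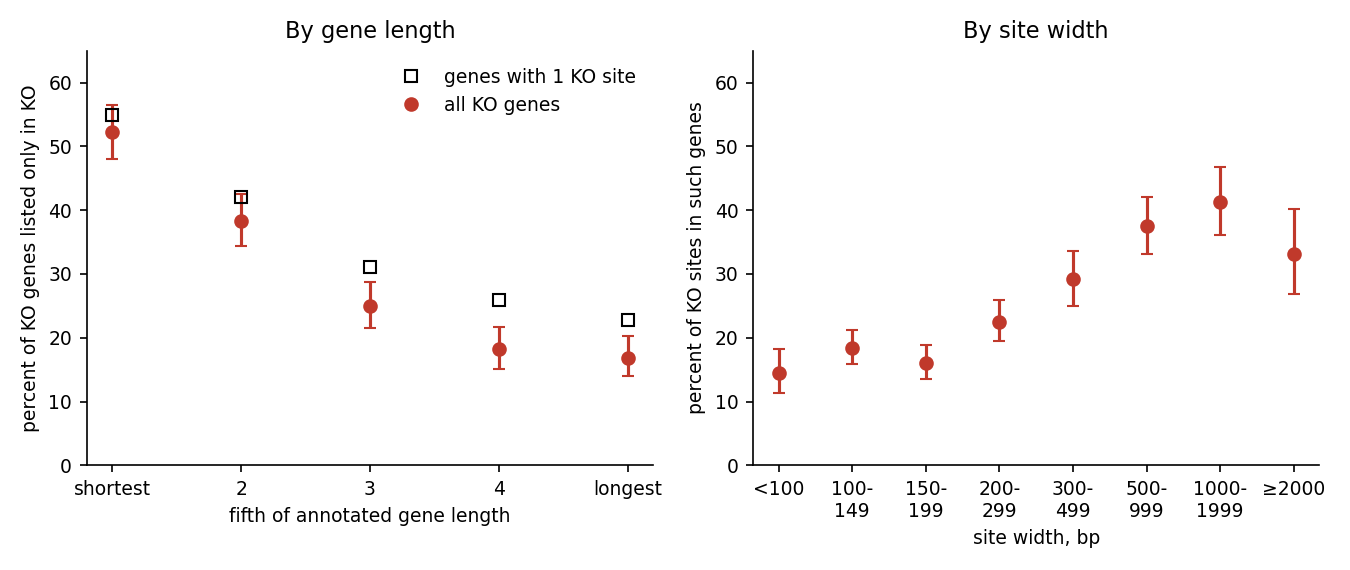
Left, percent of KO genes listed only in KO in each of 5 equal classes of annotated gene length, for all KO genes (red circles, Wilson 95% intervals) and for genes with 1 KO site (open squares). Right, percent of KO sites in such genes by site width in bp, with the same intervals; the left panel falls from 52.3% to 16.9% and the right panel lies between 14.4% and 18.5% below 200 bp and between 22.5% and 41.3% above, with the widest class at 33.2%.

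Sites were wider at like gene lengths too. In the shortest length class the median site width was 443 bp in genes listed only in KO and 326 bp in genes listed in both, and in the longest class it was 287 against 183 bp. The wider sites therefore appeared in each of the 5 length classes, with medians of 245.5 against 193 bp, 224 against 171 bp and 265 against 177 bp in the classes between.

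The sites also sat nearer to the ends of genes. Of the 912 sites that lay inside the reference gene, 331 came within 500 bp of an annotated gene end (36.3%, Wilson 95% interval 33.2 to 39.5), against 535 of 2932 other KO sites (18.2%, 16.9 to 19.7) and 20.7% of WT sites. Either end counted, and strand was not used here, so starts were not told apart from 3′ ends. Because short genes have ends close by, the share was also taken by length: it was 57.0% against 51.5% in the shortest class and 26.1% against 27.1% in the next. In the 3 longer classes it was 28.2% against 15.2%, 29.1% against 12.2%, and 20.4% against 9.32%. Some intervals began or ended exactly on an annotated gene end: 122 of the 912 (13.4%), against 182 of 2932 (6.21%) and 8.23% of WT sites. Whether intervals were cut at annotated ends was not tested.

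**Figure D3:**
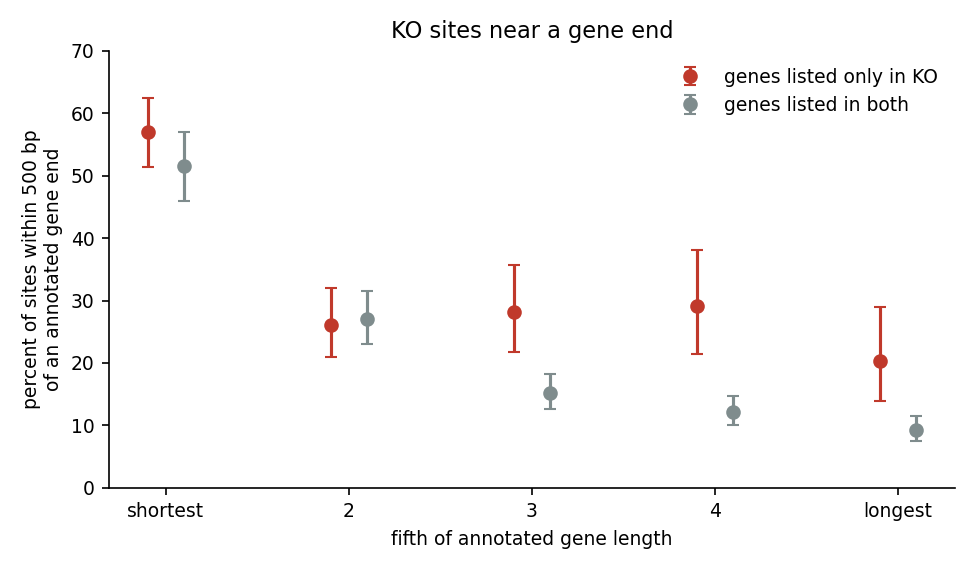
Percent of KO sites within 500 bp of an annotated gene end (vertical axis) in each of 5 equal classes of gene length, for genes listed only in KO (red) and genes listed in both (grey), with Wilson 95% intervals over sites. The intervals overlap in the 2 shorter classes and lie apart in the 3 longer ones, where red stands at 28.2%, 29.1% and 20.4%.

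Almost none of these sites touched a WT site of a neighbouring gene. Of 3937 KO sites in all, 2652 overlapped no WT site of any gene (67.4%), a share that includes genes with WT sites of their own and is no like comparison. Among the 948, a single site did overlap one: the site of Wdr38, a WD repeat gene, at chr2:39001298-39001584 (3.83-fold) shared 5 bp with a WT site of Rpl35, a ribosomal protein gene. In all, 51 sites lay within 10000 bp of a WT site, and the median distance was 72590 bp.

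The highest fold enrichment belonged to a processed copy of a ribosomal protein gene. Rpl13-ps3, a pseudogene of Rpl13, had a site of 28.97-fold at chr14:58893506-58894129, with a score of 1828.06 and a false discovery rate of 100%. Rpl10-ps3, a pseudogene of Rpl10, reached 11.63-fold with a score of 3040.72, and the histone gene Hist1h2bp reached 13.06-fold with a score of 2422.24, both also at 100%. Gm4799 had a score of 678.71 at 4.66-fold, and Hspa1a one of 524.28 at 11.08-fold, and these 5 sites had the highest scores of the 948. Reads assigned to ribosomal protein pseudogenes, histone genes and Hsp70 genes can also come from near-identical copies, so the gene that gave rise to them is uncertain. Neither Rpl13 nor Rpl10 had a row in either list. By reference annotation, 809 of the 849 genes were protein coding, 8 were pseudogenes, 2 transcribed pseudogenes and 2 long non-coding RNAs, and 28 had no entry.

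Among protein-coding genes with their own sequence, cell cycle regulators led. E2f7, a repressor of the E2F family that restrains S-phase genes, had a site of 19.09-fold at chr10:110782198-110782619 and another of 8.32-fold. Its closest relative, E2f8, had 3 WT sites (best 12.74-fold) and no KO site. Such a listing was common, since 3156 of the 5085 WT genes had no KO site. Fzr1 encodes the activator of the anaphase-promoting complex that keeps cells in G1, and its site at chr10:81378270-81378516 had a fold enrichment of 16.31 and covered an annotated transcript start. The false discovery rates of these leading sites were 100% in E2f7 and 76.4% in Fzr1.

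The other genes among the 12 with the highest fold enrichment had varied roles. Gabpb1, the beta subunit of the ETS-family factor GABP, stood at 13.22-fold, while Gabpa, its DNA-binding partner, was listed in both genotypes (best KO site 7.52-fold). Zbed5, of transposon origin, stood at 12.73-fold. Pak4, a kinase downstream of Cdc42, stood at 12.24-fold with a site over its transcript start, and Phka1, a regulatory subunit of the glycogen phosphorylase kinase, also stood at 12.24-fold. Pnp2, a purine nucleoside phosphorylase with a close copy in Pnp, reached 11.75-fold and Wdr61, a subunit of the PAF1 and SKI complexes, 11.73-fold. AK144545, at 14.42-fold, has no entry in the reference table and is named only by its accession.

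Genes with several KO sites and no WT site are the least dependent on a single interval. Samm50, which helps insert beta-barrel proteins into the mitochondrial outer membrane, had 5 sites, at 5.98-, 5.83-, 4.57-, 3.69- and 3.29-fold, all below the median of the set. Exo1, an exonuclease of mismatch repair and recombination, had 4, at 8.96-, 8.34-, 7.23- and 5.08-fold.

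The genes with 3 sites were mixed in function. Best fold enrichments among them were 10.95 in Hsf2 (heat shock factor), 9.79 in Maoa (monoamine oxidase), 9.39 in Cdcp1 (a membrane glycoprotein), 9.30 in Ezh1 (a histone methyltransferase), 8.81 in Plxna3 (a semaphorin receptor) and 8.46 in Fbln1 (a matrix protein). Lower values were 8.26 in Gemin5 (assembly of splicing particles), 7.34 in Map2k3 (a kinase of the p38 pathway) and 6.65 in Sorbs2 (a cytoskeletal adaptor). Ezh2, the paralogue of Ezh1, had 2 WT sites and 1 KO site.

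**Figure D4:**
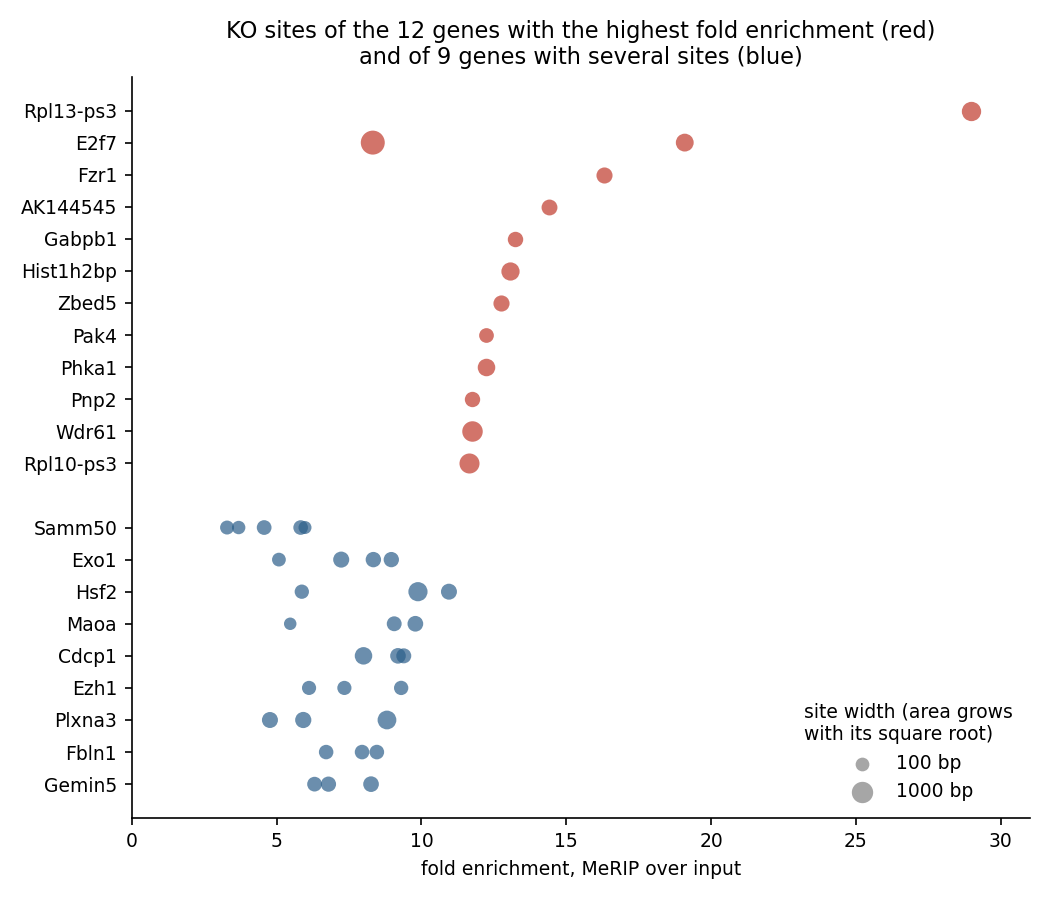
Fold enrichment (horizontal axis, MeRIP over input) of every KO site in the 12 genes with the highest values (red) and in 9 genes with several sites (blue: 4 or more sites, or 3 sites with a best value of at least 8), with larger points for wider sites. Rpl13-ps3 stands alone at 28.97, E2f7 holds 19.09 and 8.32, and the 5 sites of Samm50 lie between 3.29 and 5.98.

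Of the m6A machinery, 11 genes had a KO site and every one of them also had a WT site, so 0 of 11 belonged to the set. The same was true of the pancreatic progenitor factors (0 of 3), Hippo pathway genes (0 of 8), endothelial genes (0 of 2) and liver and gut genes (0 of 2). The share over all KO genes was 30.6%, and the Wilson interval reached 25.9% for 0 of 11 and 32.4% for 0 of 8. Of the 26 genes in the machinery list, 21 had a WT site, and the rule bars such genes from the set. Among the 26 gene lists, 3 had an interval without the overall share. Genes of a list are not replicates, and no list was tested.

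Endocrine genes in the set were the 2 prohormone convertases. Pcsk1, which cleaves proinsulin and other prohormones, had 1 site of 8.26-fold at chr13:75112542-75112754, and Pcsk2, which completes the cleavage and processes glucagon, had 1 site of 6.14-fold at chr2:143793089-143793304. The other 9 endocrine genes with a KO site had a WT site too, among them Cpe, the carboxypeptidase that trims the same prohormones, with 4 WT sites and 1 KO site (6.02-fold). Hence 2 of 11 endocrine genes were listed only in KO (18.2%). The Wilson interval of that share, 5.14 to 47.7, included the 30.6% over all KO genes.

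Beside 30.6% over all KO genes, acinar genes contributed 3 of 6 (Wilson interval 18.8 to 81.2). Among them, Cpb1 (carboxypeptidase B1) had 1 site of 4.07-fold with a false discovery rate of 100%, and Cela1 (an elastase) 1 site of 3.31-fold. Duct genes contributed 2 of 8. These were Spp1 (osteopontin), with sites of 5.75- and 3.07-fold, the latter the lowest value among the 948, and Pkd2 (polycystin 2) with 5.43-fold. Whether these transcripts were more abundant in KO is not known from the lists.

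Of the pathway lists, Notch contributed 2 of 14, namely Spen, a corepressor that acts with Rbpj, at 11.28-fold, and Neurl1a, a ubiquitin ligase for Notch ligands, at 7.59-fold. Rbpj itself, the DNA-binding factor of the pathway, had 1 WT site (8.07-fold) and no KO site. A KO site was also lacking in 3156 of the 5085 WT genes as a whole. The site of Spen covered a transcript start and had a false discovery rate of 100%.

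Wnt contributed 4 of 13, or 30.8%, close to the 30.6% over all KO genes. Rnf43, a ubiquitin ligase that removes Frizzled receptors from the surface, had a site of 9.53-fold. Its paralogue Znrf3 had 1 WT site (10.10-fold) and no KO site, as did 3156 of the 5085 WT genes in lacking one. Prickle2, of the planar cell polarity branch, stood at 10.28-fold, the cytoplasmic transducer Dvl1 at 6.58-fold and the receptor Fzd6 at 5.10-fold. Dvl3 had 1 site in each list.

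Hedgehog genes contributed 3 of 5, at 6.61-fold for the receptor Ptch1, 6.42-fold for the effector Gli1 and 5.88-fold for the coreceptor Boc. The Wilson interval for these 3 of 5, 23.1 to 88.2, included the 30.6% over all KO genes. Of the FGF and EGF receptor and Ras genes, 4 of 13 were listed only in KO. They were the ligands Fgf18 (10.40-fold) and Fgf10 (4.42-fold), the hepatocyte growth factor receptor Met (8.04-fold) and the kinase Araf (4.30-fold). The TGF-beta list gave 1 of 9, the receptor Tgfbr2 at 8.55-fold, and the insulin, PI3K and mTOR list 2 of 14, the AMPK subunit Prkaa2 at 6.36-fold and the mTORC1 activator Rheb at 6.32-fold. None of these genes had more than 1 KO site.

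Cell cycle genes formed one of the larger groups, with 13 of 26 (Wilson interval 32.1 to 67.9), beside 30.6% over all KO genes. Beside E2f7 and Fzr1 they included Espl1, the protease separase that cuts cohesin (8.03-fold), Cdkn2c, an inhibitor of Cdk4 and Cdk6 (7.34-fold), Plk4, the kinase of centriole duplication (7.12-fold, 2 sites), and Pkmyt1, an inhibitory kinase of Cdk1 (7.10-fold). Lower values were those of the anaphase-promoting complex subunits Cdc23 (5.87-fold) and Cdc16 (5.66-fold), Mcm5 (5.18-fold), E2f3 (4.97-fold), Wee1 (4.87-fold), Cdkn2d (4.73-fold) and Mad2l1 (3.75-fold). The group held activators and inhibitors of the cycle alike. By pathway annotation in the deposited file, 15 of 34 cell cycle genes with a KO site were listed only in KO (44.1%). The Wilson interval of that share, 28.9 to 60.5, included the 30.6% over all KO genes. By process annotation the count was 43 of 144 (29.9%, 23.0 to 37.8). The median length of the 26 genes was 25485 bp, against 45478 bp for all KO genes.

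DNA repair genes contributed 9 of 18, among them Fancf (9.06-fold) and Fancd2 (5.63-fold) of the Fanconi pathway, Prkdc, the kinase of end joining (7.59-fold), and Xrcc2 of homologous recombination (7.58-fold). Rnf8 (6.61-fold), Ercc2 (6.47-fold), Ddb1 (5.50-fold) and Brca1 (4.23-fold) belonged as well. Chromatin regulators contributed fewer, 5 of 41, namely Kdm4b (9.65-fold), Ezh1 (9.30-fold), Suv39h1 (7.51-fold), Sirt1 (5.95-fold) and Chd4 (5.32-fold). The KO genes of the chromatin list were longer, at a median of 77998 bp. Splicing factors contributed 5 of 29, among them Celf2 (7.59-fold, 2 sites), the 3′ splice site factor U2af1 (5.91-fold) and the core particle genes Snrpb (5.42-fold) and Snrnp70 (5.35-fold). Ubiquitin ligases and deubiquitinases contributed 6 of 26, with March5, a ligase of the mitochondrial outer membrane, at 10.97-fold and Skp2, which marks cell cycle inhibitors for decay, at 7.77-fold. Of the apoptosis and p53 genes 2 of 7 belonged, both relatives of Bcl2, Bcl2l11 at 5.93-fold and Bok at 5.09-fold. The share over all KO genes, 30.6%, lay inside the Wilson intervals for DNA repair (29.0 to 71.0) and splicing (7.60 to 34.5). It also lay inside those for the ubiquitin list (11.0 to 42.1) and the apoptosis list (8.22 to 64.1). The interval for chromatin regulators, 5.32 to 25.5, lay below it.

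Metabolic lists contributed 5 of 27 genes for lipids (18.5%) and 5 of 19 for carbohydrates (26.3%), beside 30.6% over all KO genes. The lipid genes included Agpat2 (8.79-fold) and Gpam (6.25-fold), acyltransferases of glycerolipid synthesis, Dgat2, the last step of triglyceride synthesis (7.34-fold), and Elovl7, a fatty acid elongase (6.85-fold). The carbohydrate genes were Phka1, the glycolytic enzymes Pfkl (7.98-fold) and Hk2 (4.96-fold), and the pyruvate dehydrogenase kinases Pdk4 (6.36-fold) and Pdk1 (6.22-fold).

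Markers of cells outside the Pdx1 lineage were present in small numbers. Mesenchymal genes contributed 4 of 19: Thy1 (6.91-fold), Wt1 (5.84-fold), Col1a1 (5.62-fold) and Fgf10. Smooth muscle and mesothelial genes contributed 3 of 5, with Acta2, smooth muscle actin, at 7.34-fold with 2 sites, Des, desmin, at 4.78-fold, and Wt1 again. Blood and immune genes gave Runx1 (7.83-fold) and Csf1r (6.76-fold), 2 of 4, and neural genes gave Ednrb (10.28-fold), 1 of 3. The part of such cells in the listing of other genes was not tested.

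**Figure D5:**
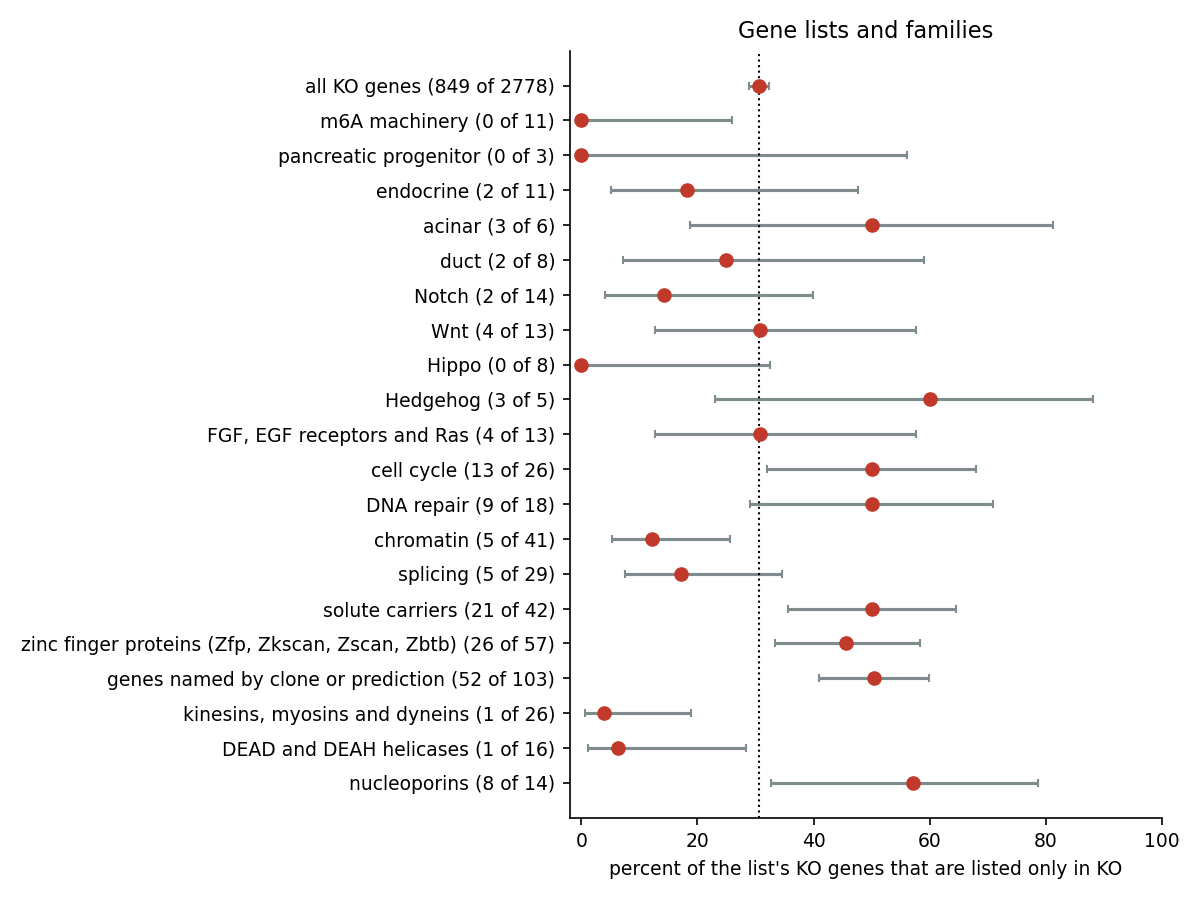
Percent of the KO genes in each list or family that were listed only in KO (horizontal axis), with Wilson 95% intervals over genes, the counts in brackets and a dotted line at the share among all KO genes, 30.6%. Solute carriers (21 of 42) and cell cycle genes (13 of 26) lie to the right of the line, while chromatin regulators (5 of 41) and kinesins, myosins and dyneins (1 of 26) lie to the left.

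Families grouped by gene symbol differed in the same descriptive way, and they stand beside 30.6% over all KO genes. Genes named only by a clone or a prediction contributed 52 of 103 (50.5%), solute carriers 21 of 42 (50%) and zinc finger genes 26 of 57 (45.6%). Motor proteins of the kinesin, myosin and dynein families contributed 1 of 26, the microtubule-depolymerising kinesin Kif2c (7.92-fold), and DEAD and DEAH helicases 1 of 16, Dhx16 (4.66-fold). Median gene length again differed, at 19255.5 bp for KO genes named by clone or prediction and 19416 bp for zinc finger genes, against 88888 bp for motor proteins, 33168 bp for helicases and 54565 bp for solute carriers.

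The solute carriers covered many substrates and no single transport system. The highest were Slc26a9, an anion transporter (10.68-fold), Slc35a3, a nucleotide sugar transporter of the Golgi (10.52-fold), Slc35e3 (10.40-fold, 2 sites) and Slc7a2 (9.07-fold). The zinc transporter family supplied Slc39a3 (5.95-fold), Slc39a6 (5.64-fold) and Slc39a8 (5.63-fold), and the monocarboxylate transporter family included Slc16a1 (7.50-fold) and Slc16a6 (6.24-fold). Zinc finger genes were led by Zfp697 (9.55-fold), Zbtb34 (9.50-fold), Zfp821 (7.83-fold) and Zfp12 (7.59-fold), and their family median was 5.86-fold.

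Further families were as follows. Transmembrane genes with Tmem symbols contributed 9 of 18, led by Tmem43 (9.83-fold), and mitochondrial ribosomal proteins 6 of 16, led by Mrpl11 (7.84-fold) and Mrpl3 (7.34-fold). Genes of the respiratory chain, its assembly factors and the ATP synthase gave 5 of 13, led by the ATP synthase gene Atp5l (8.44-fold). Collagens gave 3 of 16, led by Col11a1 (10.04-fold). Rab GTPases and their regulators contributed 8 of 25, with Rab15 at 11.01-fold and Rab27a, which docks secretory granules, at 10.93-fold. Receptors with Gpr or Adgr symbols gave 4 of 5, from Adgrl2 (9.79-fold) to Adgre5 (5.87-fold). All 3 KO genes of the interleukin and interferon group were listed only in KO, and all were receptor chains: Ifnar1 (9.06-fold), Il6st, the shared chain gp130 (7.08-fold), and Il13ra1 (5.22-fold). The WT list held 14 other genes of that group, none with a KO site. Intervals lay above the overall share for the Gpr or Adgr receptors (37.6 to 96.4) and the interleukin group (43.9 to 100). For the other families of this paragraph they took it in.

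Some small families stood out only after the values had been seen, and they are given as such. Of 14 genes with a nucleoporin symbol and a KO site, 8 were listed only in KO, a share of 57.1% against 30.6% over all KO genes. The file's own annotation to the nuclear pore gave 10 of 27 (37.0%, Wilson 95% interval 21.5 to 55.8). They included Nup107 (11.29-fold) and Nup133 (8.32-fold) of the outer ring of the pore, Nup88 (10.23-fold) and Nup214 (8.08-fold) of the cytoplasmic face, Nup54 of the central channel (7.33-fold) and Nup210 of the membrane ring (4.40-fold). Each of these had 1 site. The WT list held 7 nucleoporin genes and the KO list 14, although the WT list as a whole was the longer one.

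The inducible Hsp70 genes Hspa1a and Hspa1b were both listed only in KO, at 11.08- and 5.29-fold over intervals of 2545 and 2194 bp, nearly the length of each gene. They are close copies and can share reads, and their false discovery rates were 100% and 90%. Hsf2, which was listed only in KO as well, belongs to the family of factors that bind heat shock promoters, while Hsf1 had no row in either list. Among all heat shock proteins and factors, these were 3 of 6 KO genes. Another 3 were listed in both genotypes and 5 only in WT. The Wilson interval for 3 of 6, 18.8 to 81.2, included the 30.6% over all KO genes. The early B-cell factors Ebf3 (9.30-fold) and Ebf2 (7.34-fold) and the soluble guanylate cyclase subunits Gucy1a3 (8.08-fold) and Gucy1a2 (6.85-fold) were the KO genes of their families, and no WT site was listed for either family.

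The annotation terms in the deposited file gave a wider view. For terms with at least 50 KO genes, the extremes were taken for each source of annotation. They stand beside a share of 30.6% over all KO genes. Of 39 component terms, the mitochondrial inner membrane had the largest KO-only share, 25 of 55 genes (45.5%), followed by genes integral to the plasma membrane, 40 of 91 (44.0%), and the actin cytoskeleton had the smallest, 8 of 55 (14.5%). Of 48 function terms, protein domain specific binding had the smallest, 5 of 66 (7.58%), then actin binding, 6 of 74 (8.11%), and poly(A) RNA binding, 45 of 288 (15.6%), while the largest was the uninformative root term (41.4%). Of 31 process terms, the root term was again largest (40.3%) and cell differentiation smallest, 11 of 69 (15.9%). Of 9 KEGG pathways, metabolic pathways had the largest, 63 of 184 (34.2%), and focal adhesion the smallest, 8 of 50 (16.0%).

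These terms too differed in gene length. The median was 24481 bp for the mitochondrial inner membrane and 88834 bp for actin binding. It was 67292 bp, however, for genes integral to the plasma membrane and 37209.5 bp for poly(A) RNA binding, so that in this pair the term with the longer genes had the larger share. The part of gene length in the shares of lists, families and terms was not tested.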

How the data were processed

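One MeRIP and 1 input library were made from WT and from KO pancreas at E15.5. Per the submitters' processing notes, cutadapt 1.9.3, HISAT2 2.0.4 and mm10 were used; peak names begin with MACS, per the file headers, whose version and settings the sources do not give. The deposited values are a fold enrichment (a ratio of MeRIP over input), a score, a false discovery rate read as percent because it reaches 100, and an interval width in bp, all by the authors. No counts came with them, so depth is unknown and no limit of detection can be given. That each MeRIP library was set against its own genotype's input was not checked.

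Starts were taken as 0-based and are printed 1-based. Genes were matched between the lists by the file's identifier, and annotated through RefSeq tables of GRCm38.p6. Shares carry Wilson 95% intervals and medians order-statistic 95% intervals; both cover counting over sites or genes, which are not replicates. No test was run. The membership, overlap and interval code was tested on simulated data (Python 3.11.15, pandas 2.3.3, numpy 2.4.6, scipy 1.17.1, matplotlib 3.10.9).

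The members, the 26 gene lists and the 44 families were chosen with earlier results of these data known. Genes named were the 12 with the highest fold enrichment, those with 4 or more KO sites, the 5 sites with the highest score, lowest false discovery rate and largest width, all members of the m6A, progenitor, endocrine, acinar, duct, Notch and Wnt lists, and up to 4 of every other list or family; some genes that this rule took are not reported here. Other names, related genes and the families described as such were chosen after their values were seen.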

Additional observations from a re-analysis of the deposited data

How the results depend on the processing

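The number of genes listed only in KO depended most on the length of the WT list. It was 849 as reported, 639 to 849 under 9 alternatives and 809 for protein-coding genes alone (added after seeing the data), but 1622 when only as many WT sites as KO sites were kept, those of highest fold enrichment. The share of KO sites, 24.1% as reported, was then 50.3%. It was 30.5% with the upper 75% of each list by score, 25.7% at 5-fold or more and 26.0% without sites of 1000 bp or more. The median fold enrichment, 6.36 as reported, was 6.56 with the upper 75% of the KO list by score, 6.58 with that of each list, 6.75 at 5-fold or more, 6.13 at a false discovery rate of 50% or less, 6.16 with the shortened WT list and 6.55 without sites of 1000 bp or more. The median width, 304.5 bp as reported, was 247 bp with the shortened WT list, 219 bp without sites of 1000 bp or more and 366 bp for genes with 1 KO site (added after seeing the data). In each of the 8 settings compared, KO-only genes had a shorter median length and wider sites than genes in both lists. The overlap with WT sites of other genes, 0.105%, was 0% when at least 0.5 of the shorter site had to be shared. Matching by current gene names removed 2 genes. No paired analysis was possible because each genotype had 1 replicate. High false discovery rates and the lack of read counts limit every statement on a single site.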
